A study of Homo sapiens with 2 samples.

Results

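The 40 genes described here are ligands, receptors, signal transducers, inhibitors and target genes of the transforming growth factor beta (TGF-beta) superfamily, together with the transcription factors that drive epithelial-mesenchymal transition (EMT). They were chosen by symbol: each is a row of the deposited table of 37364 genes whose name equals a listed member, and all 40 were found. Polyadenylated RNA was sequenced from D407, an established human line labelled as adult retinal pigment epithelium (RPE), after enrichment on oligo(dT) beads. The study asked which RNAs differ in RPE cells exposed to clusterin, a secreted chaperone glycoprotein. There was 1 library from clusterin-treated cells and 1 from control cells, both grown in medium with fetal bovine serum, and the dose and duration of the treatment are not given in the sources used here. With 1 library per group, no difference has a replicate check and no test between the groups was made, so every interval below covers counting error only.

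Levels are RPKM, reads per 1 kilobase of transcript, scaled to the total reads of the library, as the authors deposited them. Whole reads were recovered from these values for all 38 members above 0, at library totals of 33177089 reads for clusterin and 38237002 for control. A gene with a mean of at least 1 RPKM over both libraries is called measured, and 29 of the 40 members (72.5%) were, against 35.4% of all genes listed. The difference is log2((clusterin RPKM + 1)/(control RPKM + 1)), which understates the fold of low genes, while the RPKM ratio, clusterin over control, is given without that addition. Of 12 RPE markers, only MITF (9.88 RPKM with clusterin and 9.70 in the control), STRA6 (7.98 and 7.83 in the same order) and BEST1 (1.73 and 2.14) were measured, and 6 had a listed level of 0, including the visual cycle genes LRAT, RLBP1 and RPE65, so the defining markers of the labelled cell type were largely absent. Of 8 fibroblast and smooth muscle markers 3 were measured, and LUM, at 45.7 RPKM with clusterin and 46.2 in the control, and DCN, at 24.9 RPKM with clusterin and 25.9 in the control, were above every RPE marker. The other measured one, COL1A1, stood at 0.920 RPKM with clusterin and 1.15 in the control. PDGFRB, MYH11, COL3A1 and DES were below 1 RPKM in both libraries, and PDGFRA had a listed level of 0. The summed level of that list was 72.5 RPKM with clusterin and 74.4 in the control, nearly all of it from LUM and DCN. The sum of the RPE list was 21.2 RPKM in both libraries. Of 6 leukocyte markers 1 was measured (CD68, 5.93 RPKM with clusterin and 6.17 in the control), of 7 photoreceptor and neuronal markers 1 (TUBB3, 2.31 RPKM with clusterin and 1.73 in the control), and of 7 melanin synthesis and 6 endothelial markers none.

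Ligands of this superfamily bind pairs of type I and type II serine/threonine kinase receptors, which phosphorylate receptor-regulated SMAD proteins. SMAD2 and SMAD3 carry signals of TGF-beta and activin, SMAD1 and SMAD5 those of bone morphogenetic proteins (BMPs), and both kinds enter the nucleus with SMAD4. In RPE cells TGF-beta is known for driving EMT, in which cells lose epithelial junctions and make matrix, as happens in proliferative vitreoretinopathy.

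Upstream sequence is shown for 3 members, taken from a table of RefSeq promoters (GRCh38.p14) that was matched by symbol or synonym for 33 of the 40 members. They are ID1, the member with the highest level, CTGF, the member above 0 in both libraries with a ratio above 2 whose counting interval lay above 1, and SMAD6, the member with the palindromic SMAD-binding letters. Windows run 5′ to 3′ on the gene's strand, at chr20:31605039-31605288 (plus strand) for ID1, chr15:66702206-66702235 (plus strand) for SMAD6 and chr6:131951373-131951622 (minus strand) for CTGF. They end at the base before the RefSeq start, and capitals mark letters found by the search described next.
ID1: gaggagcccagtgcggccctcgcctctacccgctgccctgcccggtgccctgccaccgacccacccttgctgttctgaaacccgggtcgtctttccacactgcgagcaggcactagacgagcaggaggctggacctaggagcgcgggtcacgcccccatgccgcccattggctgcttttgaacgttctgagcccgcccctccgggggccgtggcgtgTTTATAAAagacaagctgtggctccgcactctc
SMAD6: ccgcggagccgccaaagtGTCTAGACtggc
CTGF: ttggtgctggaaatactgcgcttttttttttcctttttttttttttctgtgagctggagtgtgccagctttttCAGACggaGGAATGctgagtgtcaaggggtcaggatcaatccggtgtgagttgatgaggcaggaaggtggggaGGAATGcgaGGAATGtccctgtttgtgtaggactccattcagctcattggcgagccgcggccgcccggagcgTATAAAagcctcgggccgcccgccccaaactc

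The 250 bases upstream of each start were searched on both strands for 6 motifs. The palindrome GTCTAGAC occurred in 0.182% of 35116 RefSeq windows and in 1 of 33 members, SMAD6, starting 12 bases before the RefSeq start. The authors' table starts SMAD6 136 bases further upstream, so only 30 bases are printed for it. The 5-letter SMAD box CAGAC, which can lie within longer elements, was in 38% of all windows and in 13 members. The GC-rich SMAD element GGCGCC was in 16.4% of windows and in 14 members. They were ACVR1, AMH, BAMBI, BMP4, BMPR2, FSTL3, INHBB, LTBP2, PMEPA1, SKIL, SMAD2, SMAD3, SMAD4 and TGFBI. The windows were not matched to the members for base composition, so these counts cannot be read as an enrichment. The TEAD element GGAATG was in 11.9% of windows and in 4 members, and CTGF held it 3 times, starting 169, 104 and 95 bases before the start, with CAGAC at 177 bases. CACCTG, the E-box bound by SNAI and ZEB factors, was in 17.5% of windows and in 1 member, TGFBR1. TATAAA was in 10.7% of windows and in 6 members, among them CTGF at 32 bases and ID1, where it was found on both strands in overlapping letters. A match describes letters in a window and does not show binding.

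Both libraries had the same leading members. ID1, an inhibitor of basic helix-loop-helix factors and a BMP target, stood at 144 RPKM with clusterin and 148 in the control. FSTL3, a secreted protein that binds and neutralises activin, stood at 136 RPKM with clusterin and 134 in the control. ID3, of the same family as ID1, stood at 70.6 RPKM with clusterin and 79.7 in the control. These 3 genes held 70.0% of the summed RPKM of the members with clusterin and 69.7% in the control, and the level of each was above that of at least 97.2% of the 20642 genes above 0. The remaining measured members lay between 1.08 and 19.2 RPKM in the clusterin library. Another 9 members were above 0 but below the floor, and INHBA and BMP7 were listed at 0 in both libraries, 2 of 40 members beside 44.8% of all genes. RPKM divides by length and by total, so levels are relative to the library. Each library came from the RNA of a whole culture, so fewer RNA molecules per cell and fewer expressing cells cannot be told apart.

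**Figure D1:**
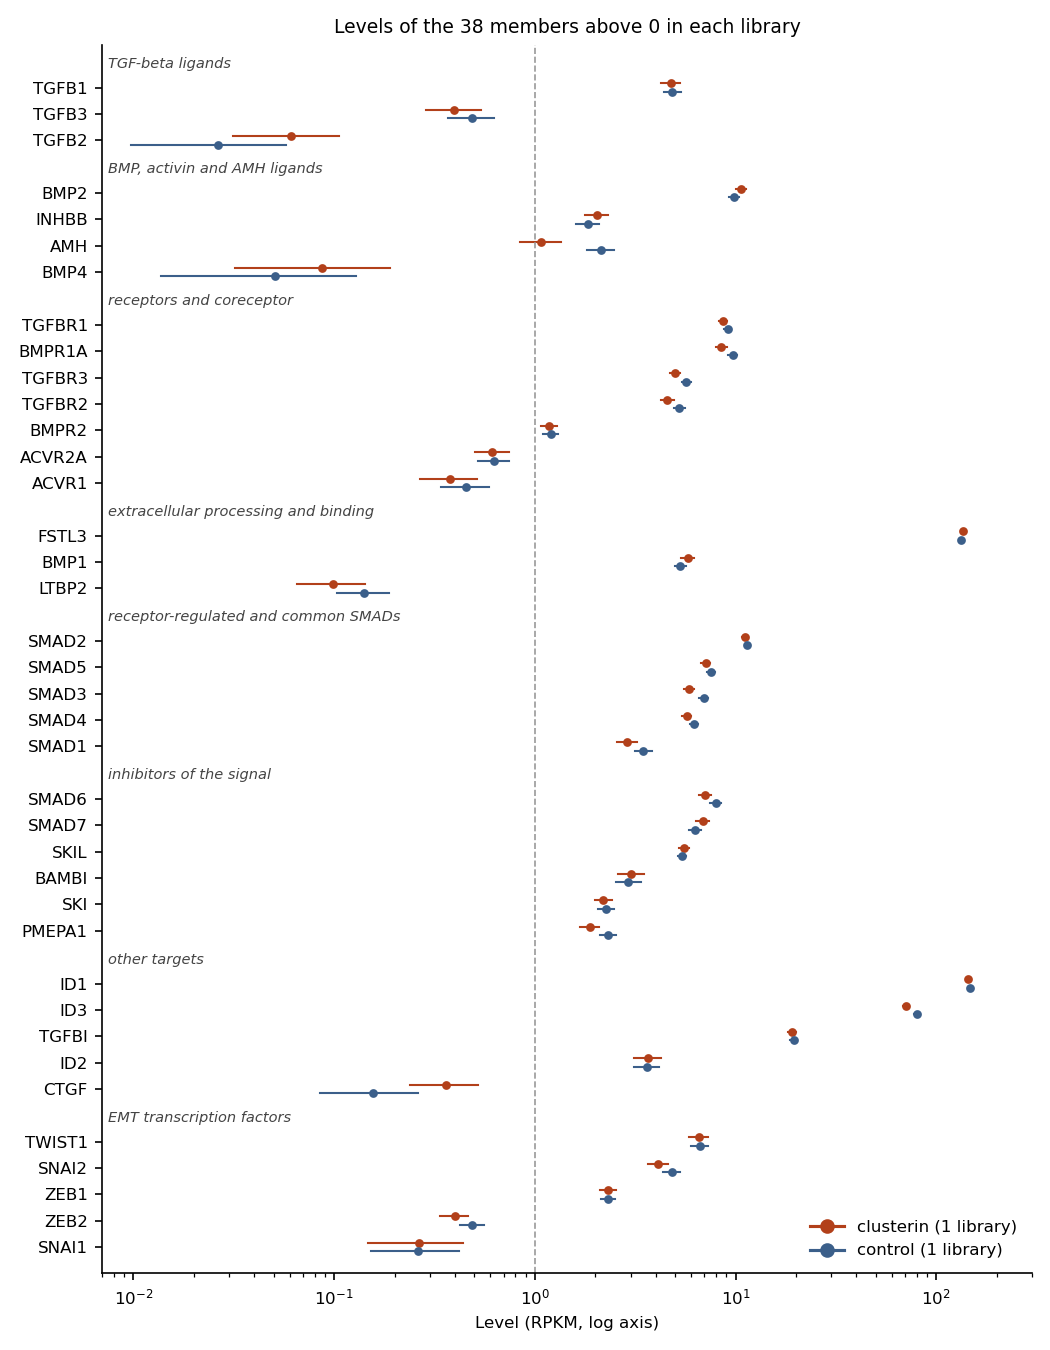
Level of each of the 38 members above 0 (RPKM, log axis), by role, in the clusterin library (upper point) and the control library (lower point). Bars are exact 95% Poisson intervals of the recovered reads, and the dashed line is the floor of 1 RPKM. ID1, FSTL3 and ID3 lie furthest right. The bars cover counting error only, and the spread between the libraries was wider than that error.

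Differences between the libraries were small. No measured member was 2-fold higher or lower, where 0.106% of the 13244 measured genes were 2-fold higher and 0.113% were 2-fold lower. At a smaller size of 1.2-fold, no member was higher (2.26% of all measured genes) and 1 of 29 was lower (5.61%), which was AMH. When the control was rescaled so that the median difference was 0, the shares of all measured genes past 1.2-fold were 3.42% higher and 3.46% lower, and AMH was still the 1 member past it. The median difference of the 29 members was -0.03, beside -0.06 over all measured genes. Of the members, 20 lay below 0, as did 70.2% of all measured genes, and 13 lay below the median of all, which by construction has 50% of genes under it.

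The counting intervals describe the same small differences in reads. The interval of the ratio lay below 1 for 10 of 29 members (26.1% of all measured genes with recovered reads) and above 1 for none (4.3%). The median ratio over 13767 genes with at least 100 reads was 0.951. Divided by that median, the intervals of 4 members lay below 1 (10.1% of genes), namely AMH, PMEPA1, SMAD3 and ID3, and those of 4 lay above 1 (12.2%), namely SMAD7, BMP2, BMP1 and FSTL3. In the authors' deposited table, q was below 0.05 and the level lower with clusterin for 6 of the 38 members (10.4% of all genes above 0), and none was higher (1.63%). The 6 had deposited q values of 3.92e-05 for AMH, 4.73e-05 for ID3, 0.000176 for SMAD3, 0.0173 for TGFBR3, 0.0228 for BMPR1A and 0.0268 for PMEPA1 in the authors' deposited table. These q values compare 2 libraries and not 2 conditions.

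**Figure D2:**
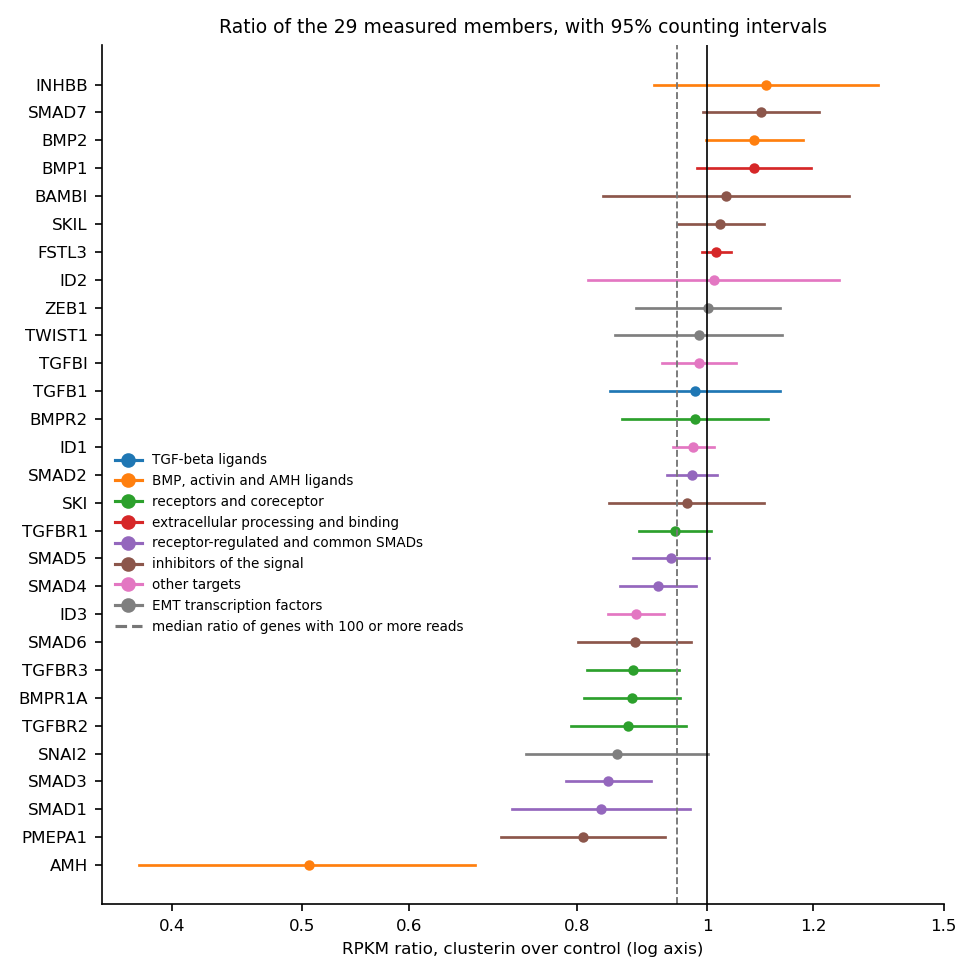
RPKM ratio of the 29 measured members, clusterin over control (log axis), with exact 95% counting intervals, ordered from the highest ratio and coloured by role. The solid line is 1 and the dashed line the median ratio of 0.951 over genes with 100 or more reads. AMH at 0.506 stands apart from the others, which run from 0.808 for PMEPA1 to 1.11 for INHBB.

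The spread between the libraries was wider than counting error, from 1.37 times for genes with 100 to 300 reads over both libraries to 3.18 times above 10000 reads. Each member was therefore also set beside genes of like depth, a description added after the values were seen. By construction 2.51% of genes lie beyond each side of the central 95% of their depth class. No member lay above that range and 2 of 29 lay below it. AMH, with 236 reads, had a ratio of 0.506 where the central 95% of 1407 genes ran from 0.619 to 1.39. SMAD3, with 3041 reads, had a ratio of 0.845 against a lower edge of 0.859 in its class, which begins at 3000 reads. In the class below, the lower edge was 0.819, so SMAD3 lies at the margin and its place depends on where classes are divided.

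**Figure D3:**
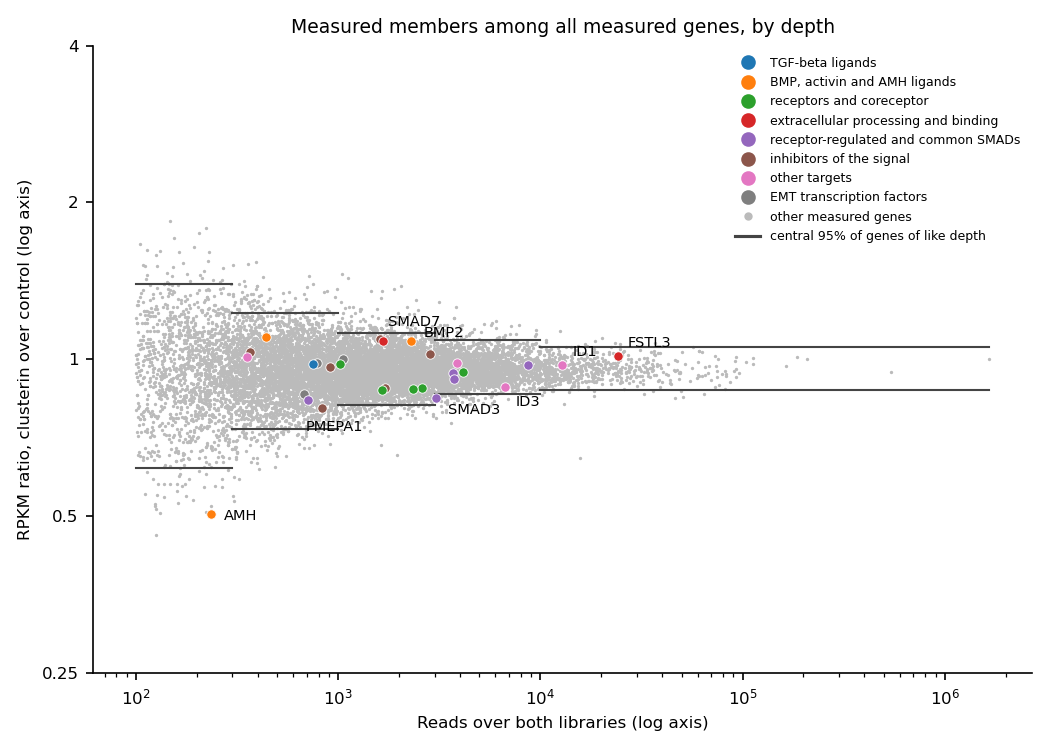
RPKM ratio, clusterin over control, against reads over both libraries (both axes log) for 12327 measured genes with at least 100 reads (grey) and the 29 measured members (coloured by role). Dark lines bound the central 95% of genes in each depth class, and 4 grey genes lie outside the axis. AMH lies below its class, SMAD3 at the lower edge, and the other members inside.

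Among the TGF-beta ligands, TGFB1 was the only one measured, at 4.75 RPKM with clusterin and 4.85 in the control, a ratio of 0.980 (0.847 to 1.13). TGFB3 stood at 0.398 RPKM with clusterin and 0.485 in the control, from 42 and 59 reads. TGFB2, the isoform known to predominate in the posterior eye, stood at 0.0607 RPKM with clusterin and 0.0264 in the control, from 12 and 6 reads. The order TGFB1, TGFB3, TGFB2 held in both libraries with intervals apart, and TGFB1 exceeded TGFB3 by 12.0 times with clusterin and 10.0 times in the control. The TGFB2 ratio of 2.31 had a counting interval of 0.801 to 7.49, which includes 1.

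BMP2, a BMP ligand, was the highest of the other ligands among the members, at 10.7 RPKM with clusterin and 9.85 in the control. Its ratio was 1.08 (0.998 to 1.18), so the interval just reached below 1. INHBB, the activin beta B subunit, stood at 2.03 RPKM with clusterin and 1.84 in the control, a ratio of 1.11 (0.914 to 1.34). BMP4 had 6 reads with clusterin and 4 in the control, too few to show a difference at this depth. INHBA, the activin beta A subunit, and BMP7 were listed at 0. Of the other subunit genes of activins and inhibins, INHA stood at 1.10 RPKM with clusterin and 0.768 in the control, INHBE at 0.532 RPKM with clusterin and 0.644 in the control, and INHBC had 3 reads in each library. The antisense gene INHBA-AS1 was also listed at 0.

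AMH, anti-Müllerian hormone, is known for the regression of the Müllerian ducts in male embryos. It lies at chromosome 19, 2249114 to 2252073, plus strand, in the deposited table, whose positions follow GRCh38 for the members. It stood at 1.08 RPKM with clusterin and 2.13 in the control, from 72 and 164 reads. The ratio was 0.506 (0.378 to 0.671) and the log2 difference -0.59, with 0.468% of measured genes lower still. Its intervals in the 2 libraries did not overlap, and its place among ligands differed: below INHBB with clusterin, and level with INHBB within counting error in the control. SF3A2, a splicing factor gene on the same strand that ends 435 bp before AMH in the table, stood at 4.37 RPKM with clusterin and 5.26 in the control, a ratio of 0.830 (0.700 to 0.983). MIR4321, within AMH, had 2 reads with clusterin and 7 in the control. JSRP1, on the opposite strand 178 bp away, was listed at 0. The part of these neighbours in the AMH reads was not tested. AMHR2, the type II receptor of AMH, had 7 reads with clusterin and 6 in the control.

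All 5 measured receptor genes lay below 0, from -0.17 to -0.02, and 4 of them below the median of all genes, where 70.2% of all measured genes lay below 0 and 50% below the median. TGFBR1, the type I receptor of TGF-beta, stood at 8.66 RPKM with clusterin and 9.15 in the control, a ratio of 0.947 (0.890 to 1.01). TGFBR2, the type II receptor, stood at 4.58 RPKM with clusterin and 5.24 in the control, a ratio of 0.874 (0.791 to 0.964). The level of TGFBR1 was thus 1.89 times that of TGFBR2 with clusterin and 1.75 times in the control. TGFBR3, the coreceptor betaglycan, stood at 5.01 RPKM with clusterin and 5.68 in the control, a ratio of 0.881 (0.815 to 0.953). BMPR1A, a type I BMP receptor, stood at 8.50 RPKM with clusterin and 9.67 in the control, a ratio of 0.879 (0.810 to 0.955). TGFBR2, TGFBR3 and BMPR1A had intervals below 1, but each interval included 1 once divided by the median ratio. BMPR2, the type II BMP receptor, was lower in level, at 1.18 RPKM with clusterin and 1.2004 in the control, so that BMPR1A exceeded it 7.23 times with clusterin and 8.06 times in the control. ACVR2A, a type II receptor of activin, stood at 0.615 RPKM with clusterin and 0.623 in the control, and it overlaps ORC4 on the opposite strand, at 1.51 and 1.48 RPKM in the same order. ACVR1, a type I BMP receptor, stood at 0.378 RPKM with clusterin and 0.454 in the control. The intervals of TGFBR1 and BMPR1A overlapped in both libraries, as did those of TGFBR3 and TGFBR2 and those of ACVR2A and ACVR1.

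Of the proteins that process or bind ligands outside the cell, FSTL3 came from the most reads of any member, 11308 with clusterin and 12824 in the control. Its ratio of 1.02 (0.991 to 1.04) is the most precisely counted of the members. BMP1, a metalloproteinase that cleaves procollagen and the BMP antagonist chordin, stood at 5.77 RPKM with clusterin and 5.32 in the control, a ratio of 1.08 (0.984 to 1.19). LTBP2, a matrix protein of the latent TGF-beta binding protein family, stood at 0.0987 RPKM with clusterin and 0.141 in the control, from 28 and 46 reads. Both measured genes of this role, FSTL3 and BMP1, lay above 0 and had intervals above the median ratio. Of all measured genes, 70.2% lay below 0, and 12.2% of those with recovered reads had intervals above the median ratio.

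The 5 members that encode receptor-regulated and common SMADs were measured and lay below 0, with 4 below the median of all genes, beside 70.2% and 50% of all measured genes. SMAD9, a receptor-regulated SMAD of the BMP branch that is not a member, was below the floor, at 0.555 RPKM with clusterin and 0.575 in the control. SMAD2 stood at 11.2 RPKM with clusterin and 11.5 in the control, a ratio of 0.975 (0.934 to 1.02). SMAD3, at chromosome 15, 67065627 to 67195195, stood at 5.85 RPKM with clusterin and 6.93 in the control, from 1286 and 1755 reads. Its ratio of 0.845 (0.785 to 0.908) stayed below 1 when divided by the median ratio, at 0.888 (0.826 to 0.955). For SMAD2 and SMAD3, which share the same receptors, the SMAD2 level was 1.91 times that of SMAD3 with clusterin and 1.65 times in the control. Their counting intervals of the ratio did not overlap. These intervals cover counting error only, and the spread between the libraries in their depth class was 2.00 times that error. SMAD5 stood at 7.09 RPKM with clusterin and 7.53 in the control, a ratio of 0.941 (0.881 to 1.004). SMAD1 stood at 2.89 RPKM with clusterin and 3.47 in the control, a ratio of 0.834 (0.717 to 0.971), and with 712 reads its interval is wide. SMAD4 stood at 5.71 RPKM with clusterin and 6.21 in the control, a ratio of 0.919 (0.861 to 0.981). The order SMAD2, SMAD5, SMAD3, SMAD4, SMAD1 was the same in both libraries, although SMAD3 and SMAD4 overlapped with clusterin and SMAD5 and SMAD3 overlapped in the control. Summed, SMAD2 and SMAD3 reached 17.0 RPKM with clusterin and 18.4 in the control, and SMAD1 and SMAD5 reached 9.98 RPKM with clusterin and 11.0 in the control. The TGF-beta pair exceeded the BMP pair 1.71 times with clusterin and 1.67 times in the control.

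The 6 genes that restrain the signal were all measured, 3 above 0 and 3 below, where 70.2% of all measured genes lay below 0. The inhibitory SMADs lay on opposite sides of 1. SMAD7, which blocks TGF-beta and BMP receptors alike, stood at 6.85 RPKM with clusterin and 6.25 in the control, a ratio of 1.10 (0.993 to 1.21). SMAD6, which acts mainly on BMP receptors, stood at 7.05 RPKM with clusterin and 7.98 in the control, a ratio of 0.883 (0.801 to 0.973). Their levels overlapped within counting error with clusterin, and SMAD6 was above SMAD7 in the control. SKIL, a repressor of SMAD complexes, stood at 5.54 RPKM with clusterin and 5.41 in the control, and its relative SKI at 2.19 RPKM with clusterin and 2.27 in the control. BAMBI, a decoy receptor without a kinase domain, stood at 3.02 RPKM with clusterin and 2.93 in the control. The ratios of SKIL, SKI and BAMBI had intervals that included 1. PMEPA1, a TGF-beta target that holds SMAD2 and SMAD3 back from the receptor, stood at 1.87 RPKM with clusterin and 2.32 in the control, from 343 and 489 reads. Its ratio of 0.808 (0.702 to 0.930) was the lowest after AMH among the 29 measured members and stayed below 1 when divided by the median ratio, at 0.850 (0.739 to 0.978). The PMEPA1 ratio nevertheless lay inside the central 95% of its depth class, which ran from 0.737 to 1.23.

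Among the other target genes, the 3 ID genes kept very unequal levels. ID1, shown above with its upstream sequence, had 5892 reads with clusterin and 6950 in the control, a ratio of 0.977 (0.944 to 1.01). ID3 had 2903 reads with clusterin and 3778 in the control, a ratio of 0.886 (0.843 to 0.930), and 0.932 (0.887 to 0.978) over the median ratio. ID2 stood at 3.65 RPKM with clusterin and 3.60 in the control, a ratio of 1.01 (0.816 to 1.25). The intervals of the ID1 and ID3 ratios, which cover counting error only, did not overlap. The spread between the libraries was 3.18 times that error in the depth class of ID1 and 2.00 times in that of ID3. Both ratios lay inside the central 95% of their class. The ID1 level was 2.04 times that of ID3 with clusterin and 1.85 times in the control. TGFBI, a matrix protein that TGF-beta induces and that is mutated in corneal dystrophies, stood at 19.2 RPKM with clusterin and 19.5 in the control, a ratio of 0.986 (0.925 to 1.05).

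CTGF, a matricellular protein that is a target of both TGF-beta and YAP/TEAD signalling, lay below the floor of 1 RPKM, and its interval lay above 1, as for 1 of the 38 members above 0 and 3.92% of all genes above 0 with recovered reads. It stood at 0.360 RPKM with clusterin and 0.156 in the control, from 28 and 14 reads, a ratio of 2.31 (1.17 to 4.74). It was singled out after its values were seen, and its deposited q of 0.0650 in the authors' deposited table was above 0.05. CYR61, a related gene with the same known regulators, stood at 4.75 RPKM with clusterin and 4.81 in the control, a ratio of 0.986 (0.854 to 1.14). The CYR61 interval lay wholly below that of CTGF, but CTGF was picked for an interval above 1. Both intervals cover counting error only, so their lying apart cannot show a change particular to CTGF.

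The EMT transcription factors are repressors or regulators that lower E-cadherin and other junction genes. TWIST1 was the highest, at 6.55 RPKM with clusterin and 6.64 in the control, a ratio of 0.986 (0.855 to 1.14). SNAI2 stood at 4.12 RPKM with clusterin and 4.80 in the control, a ratio of 0.858 (0.734 to 1.002), an interval that just includes 1. ZEB1 stood at 2.32 RPKM in both libraries, a ratio of 1.002 (0.886 to 1.13). Its antisense partner ZEB1-AS1 stood at 0.967 RPKM with clusterin and 0.851 in the control, and since the strand setting of the counting is not given, their reads cannot be told apart where they overlap. ZEB2 was below the floor, at 0.398 RPKM with clusterin and 0.487 in the control, and ZEB1 exceeded it 5.83 times with clusterin and 4.76 times in the control. SNAI1 was also below it, at 0.265 RPKM with clusterin and 0.261 in the control, from 15 and 17 reads. The order of the 5 was the same in both libraries, with ZEB2 and SNAI1 overlapping with clusterin.

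Some markers of the epithelial and some of the mesenchymal state were present side by side. Of 18 epithelial markers, 8 were measured, while OVOL1, GRHL2, ESRP1 and EPCAM had a listed level of 0, 4 in all. KRT18 and KRT8, keratins of simple epithelia, stood at 247 and 231 RPKM with clusterin and at 254 and 226 in the control. CDH1, E-cadherin, had 4 reads with clusterin and 3 in the control. OCLN, CLDN1, CLDN3, OVOL2 and CRB3 were also below 1 RPKM in both libraries. Of 10 mesenchymal markers, 5 were measured, led by S100A4 at 562 RPKM with clusterin and 571 in the control and by VIM, vimentin, at 108 RPKM in both libraries. SPARC, TNC and ACTA2 were below 1 RPKM in both libraries. POSTN and CDH11 had a listed level of 0, as did 44.8% of all genes. No marker of either kind passed 1.2-fold, and the median differences were -0.02 for both lists. The summed RPKM of the epithelial list was 635 with clusterin and 630 in the control, most of it from KRT18 and KRT8. That of the mesenchymal list was 714 with clusterin and 724 in the control, most of it from S100A4.

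The rest of the pathway was read from 7 lists of 119 other genes, of which 59 were measured. None of the 59 passed 2-fold, 1 passed 1.2-fold on the high side (2.26% of all measured genes) and 1 on the low side (5.61%), with a median difference of -0.05. The higher one was NOG, noggin, a secreted protein that binds and blocks BMPs. NOG stood at 5.07 RPKM with clusterin and 3.99 in the control, from 318 and 289 reads, a ratio of 1.27 (1.08 to 1.49). The lower one was TGIF2, a transcriptional corepressor of SMADs, at 7.59 RPKM with clusterin and 9.43 in the control, a ratio of 0.804 (0.738 to 0.876). Just inside the size rule was TAB2, an adaptor of the kinase encoded by MAP3K7, at 3.34 RPKM with clusterin and 4.21 in the control, a log2 difference of -0.26, named after its values were seen.

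Among other ligands, 4 of 24 were measured and 13 were listed at 0, beside 44.8% of all genes at 0. GDF15, a stress-induced family member, stood at 11.2 RPKM with clusterin and 10.4 in the control, and BMP6 at 8.64 RPKM with clusterin and 8.96 in the control. Of 11 other receptors and coreceptors 4 were measured, all below 0, as were 70.2% of all measured genes. They were led by ACVR1B, a type I activin receptor, at 2.93 RPKM with clusterin and 3.19 in the control, and the coreceptor ENG at 2.52 and 2.83 RPKM in the same order. Of 15 latency and activation genes 10 were measured, led by ITGB5, an integrin subunit, at 48.9 RPKM with clusterin and 47.5 in the control, and DCN, decorin, at 24.9 RPKM with clusterin and 25.9 in the control.

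The secreted antagonists had 4 of 15 genes measured. Besides NOG, these were led by NBL1, at 22.1 RPKM with clusterin and 22.9 in the control, and FSTL1, at 21.5 RPKM with clusterin and 24.1 in the control. Of 23 intracellular transducers 22 were measured, led by STRAP, at 62.1 RPKM with clusterin and 66.9 in the control, and the ubiquitin ligase STUB1, at 39.8 RPKM with clusterin and 37.5 in the control. Of 19 other targets 12 were measured, with the AP-1 gene JUNB at 86.4 RPKM with clusterin and 87.2 in the control and the cell cycle inhibitor CDKN1A at 23.8 RPKM with clusterin and 22.7 in the control. Of 12 other EMT transcription factors 3 were measured, with SOX4 at 9.61 RPKM with clusterin and 10.6 in the control and TCF3 at 8.87 RPKM with clusterin and 8.67 in the control.

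**Figure D4:**
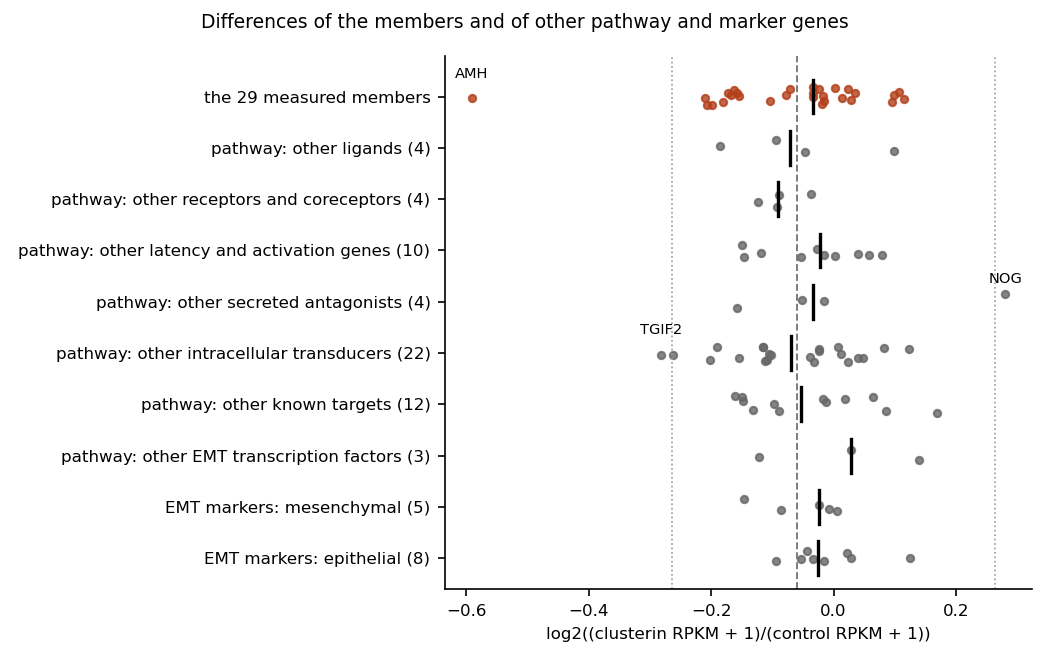
Log2 difference, clusterin over control, of the 29 measured members (top row) and of the measured genes of 7 other pathway lists and 2 marker lists, with the number of genes in brackets. Points are genes, thick bars list medians, dotted lines the 1.2-fold size, and the dashed line the median of all measured genes at -0.06. AMH, NOG and TGIF2 are the 3 points beyond the dotted lines.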

How the data were processed

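RNA of 1 clusterin-treated and 1 control culture of D407 cells was sequenced. The tools named per the submitters' processing notes are TopHat, Bowtie and Cuffdiff, and the build is hg19. Neither their versions nor a strand setting is given in the sources used here. Besides 1 level per gene and library, the authors deposited a q-value, a p-value and a log2 fold. The header names no unit for the levels, and RPKM was read from the deposited values: for 499 of 542 genes spanning under 200 bp, level times length gave whole reads within 0.02 at 1 total per library. For 490 of 496 of these the deposited p-value equalled the Audic-Claverie p of those reads, which counts read sampling error only. The same match gave the reads of 20563 of 20642 genes above 0 (99.6%). In simulated data of 1930 genes, 98.7% were recovered and 99.9% of these were exact. Positions of 39 of 40 members lay within 2000 bp of RefSeq on GRCh38 at 1 end or both, although the notes name hg19, and none were converted.

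Ratio intervals are exact Clopper-Pearson intervals and level intervals exact Poisson intervals, at 95%, from Python 3.11.15 and scipy 1.17.1. They cover counting error only, since each group has 1 library. Reads were counted without molecular identifiers. The members, the lists and the sizes of 2-fold and 1.2-fold were chosen with earlier results of these data known. The text gives every measured member and, for each other pathway list and EMT marker list, the 2 highest genes by mean level and those past 1.2-fold. Other pseudocounts, filters and scalings were tried.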

Additional observations from a re-analysis of the deposited data

How the results depend on the processing

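No paired analysis was possible because each group has 1 library. No member passed 2-fold under any pseudocount, filter or scaling tried, and none was past 1.2-fold on the high side. The 9 members below the floor were admitted only with a pseudocount of 1 RPKM. A gene under 1 RPKM in both libraries cannot reach 2-fold there, so that setting cannot decide it for CTGF and TGFB2, each with an RPKM ratio of 2.31. On the low side, AMH was the 1 of 29 members past 1.2-fold as reported, beside 5.61% of all measured genes. Adding 0.1 RPKM in place of 1 brought in PMEPA1 as well, 2 of 29 members, but the share of all measured genes was then 10%. Adding 5 RPKM left 0 members, beside 0.974% of all measured genes. A floor of 5 RPKM, which leaves AMH out, gave 0 of 17 members beside 2.77% of the genes that pass it. Every other setting kept AMH alone, beside 3.23% to 5.87% of the genes admitted. The median difference of the members was -0.03 as reported and up to 0.02 with the control rescaled to a median of 0. That rescaling turned the sign of 7 members (TGFB1, BMPR2, SMAD2, SKI, ID1, TGFBI and TWIST1) and quantile normalization that of 6 of these, so that signs near 0 follow the scaling. Divided by the median ratio, a choice made after seeing the data, counting intervals lay below 1 for 4 members in place of 10 and above 1 for 4 in place of 0. The cause was not tested. Members below about 100 reads, such as CTGF, TGFB2, BMP4 and SNAI1, are limited by counting.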
